A study of Homo sapiens with 10 samples.

Results

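Chromosome 13 carried 412 of the 17660 WDR5 summits called in wild-type cells, 563 of the 21055 called in EMBOW knockout cells and 6779 of the 93143 called for tagged EMBOW. Every summit placed on chromosome 13 in the 3 deposited peak lists was taken, which gave 7754 of 131858 summits. A summit is the base at which the signal of a peak is highest. The chromosome was picked because its ratio of knockout to wild-type summits, 1.37 (exact 95% interval 1.20 to 1.56), held place 2 of 23 chromosomes and because it held many tagged-EMBOW summits, so both facts are descriptions of the choice. On the other chromosomes together the ratio was 1.19 (1.16 to 1.21). The contrast of the 2 genotypes on this chromosome is likewise given as values, with no test.

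The study used HEK293T, an immortal line of human embryonic kidney origin, and 3 groups of it enter here. WDR5 was precipitated with 1 antibody from wild-type cells (WT) and from EMBOW knockout cells (KO), and anti-FLAG beads precipitated EMBOW from cells that stably expressed EMBOW-FH, a tagged form; its list is called EMBOW-F. Each list came from 1 library of nuclei digested with micrococcal nuclease, so differences between lists lack any check by replicates, and every interval below covers counting error only and treats summits as independent. The labels give neither the number of knockout clones nor the level of the tagged protein, and the knockout itself cannot be checked in these lists. The inputs and the H3K4me3 libraries were not analysed here.

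WDR5 is a WD40-repeat scaffold of the complexes that methylate histone H3 at lysine 4, and it is best known at the start sites of active genes. It also docks with transcription factors such as MYC and is found on the mitotic spindle. EMBOW is a microprotein that binds WDR5. The long arm of chromosome 13 alternates between stretches with many genes and some of the widest gene deserts of the human genome, and its short arm is made of repeats.

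The 5 start sites below show the sequence under the summits in the classes described in the results. They are RefSeq sequences of GRCh38.p14, 250 bases before to 50 bases after the annotated start, read 5′ to 3′ on the strand of the gene, and the capitals mark the summit with 5 bases on either side. RCBTB1, which encodes a BTB-domain protein, is shown for a site with 1 sharp summit in both genotypes (chr13:49585509-49585808, minus strand). FNDC3A is shown for a WT summit with no KO partner (chr13:48975662-48975961, plus strand), and MTUS2 and ARHGEF7 for KO summits with no WT partner (chr13:28820089-28820388 and chr13:111114369-111114668, both plus strand). SLITRK1, a neuronal transmembrane protein, is the 1 promoter of the chromosome that holds an EMBOW-F summit (chr13:83882425-83882724, minus strand).
RCBTB1: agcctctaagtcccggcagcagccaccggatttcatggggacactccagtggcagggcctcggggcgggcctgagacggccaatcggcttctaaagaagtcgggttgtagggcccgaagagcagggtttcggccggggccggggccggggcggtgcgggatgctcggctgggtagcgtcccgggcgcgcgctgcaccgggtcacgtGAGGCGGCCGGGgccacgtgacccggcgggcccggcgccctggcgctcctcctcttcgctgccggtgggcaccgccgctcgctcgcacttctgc
FNDC3A: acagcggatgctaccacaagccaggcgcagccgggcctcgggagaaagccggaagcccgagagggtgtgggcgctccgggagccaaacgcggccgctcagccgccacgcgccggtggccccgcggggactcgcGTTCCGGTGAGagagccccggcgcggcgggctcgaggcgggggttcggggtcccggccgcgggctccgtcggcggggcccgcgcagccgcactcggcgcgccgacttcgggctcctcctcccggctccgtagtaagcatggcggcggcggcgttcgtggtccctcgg
MTUS2: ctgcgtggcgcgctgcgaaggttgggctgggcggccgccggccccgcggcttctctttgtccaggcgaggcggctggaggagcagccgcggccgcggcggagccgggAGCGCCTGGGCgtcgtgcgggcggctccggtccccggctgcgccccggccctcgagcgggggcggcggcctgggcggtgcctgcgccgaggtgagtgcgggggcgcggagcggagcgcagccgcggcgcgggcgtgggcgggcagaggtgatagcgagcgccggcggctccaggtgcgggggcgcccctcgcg
ARHGEF7: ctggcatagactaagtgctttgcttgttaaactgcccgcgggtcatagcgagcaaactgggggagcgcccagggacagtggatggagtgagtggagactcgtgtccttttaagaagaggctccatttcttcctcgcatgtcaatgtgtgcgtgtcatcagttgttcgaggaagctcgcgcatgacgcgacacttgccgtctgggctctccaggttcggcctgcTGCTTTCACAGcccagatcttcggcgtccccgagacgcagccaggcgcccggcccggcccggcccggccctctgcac
SLITRK1: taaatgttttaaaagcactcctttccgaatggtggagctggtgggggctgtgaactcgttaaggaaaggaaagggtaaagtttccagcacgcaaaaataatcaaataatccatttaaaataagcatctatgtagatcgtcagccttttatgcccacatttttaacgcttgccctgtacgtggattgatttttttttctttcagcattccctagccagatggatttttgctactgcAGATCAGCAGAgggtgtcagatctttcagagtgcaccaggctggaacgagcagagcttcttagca
The RCBTB1 summits lay 38 bp upstream of the start in WT and 39 bp upstream in KO, in a window with 73.3% G and C and 36 CpG dinucleotides that holds CACGTG and CCAAT. The FNDC3A window held 77.3% G and C and the MTUS2 window 82.3%. The ARHGEF7 window held 61.0% with 23 CpG dinucleotides, and the SLITRK1 window 42.3% with 7. The KO summits at MTUS2 and ARHGEF7 were weak, with a −log10 q of 4.61 and 3.61. The EMBOW-F summit at SLITRK1 lay 10 bp upstream of the start and had a −log10 q of 3.15, and no WDR5 summit of either genotype lay in that window.

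Scores below are the authors' −log10 q per summit, the value of the peak caller, and a rank is the place of a summit in its own genome-wide list. The median −log10 q on chromosome 13 was 4.92 in WT and 4.86 in KO, below the 6.54 and 6.39 of the other chromosomes, and for EMBOW-F it was 3.92 against 3.25. Read depth is unknown, because the lists hold no counts.

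WDR5 on chromosome 13 sat at gene ends less often, and in gene deserts more often, than elsewhere. Summits at most 1 kb from an end, 5′ or 3′, of a protein-coding gene are called gene-end summits. In WT, 161 of 412 summits (39.1%) were gene-end summits, where the genome-wide share, over all chromosomes with 13 included, is 61.3%, and in KO 209 of 563 (37.1%), where it is 55.8%. The difference from the other chromosomes was -22.8 percentage points in WT (95% interval -27.4 to -17.9) and -19.2 points in KO (-23.2 to -15.1). Both shares were the lowest of the 23 chromosomes, of which the others spanned 53.5 to 70.1% in WT and 49.7 to 64.3% in KO. Summits more than 100 kb from any protein-coding gene made up 148 of the WT summits (35.9%, genome-wide 4.64%) and 173 of the KO summits (30.7%, genome-wide 5.34%).

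A smaller share of WDR5 summits was found in both genotypes here than elsewhere. A summit with a summit of the other genotype within 500 bp is called shared. In KO, 209 of 563 summits (37.1%) were shared, against 59.6% genome-wide, and in WT 209 of 412 (50.7%), against 71.3%. The other chromosomes spanned 54.7 to 66.5% in KO and 66.4 to 78.2% in WT, so chromosome 13 lay below each of them. The shared summits were the strong ones, with a median −log10 q of 11.3 in KO and 7.39 in WT, where the unshared summits had 3.60 and 3.64. Within 5 kb, a WT summit was found for 54.7% of KO summits (genome-wide 79.9%) and a KO summit for 65.0% of WT summits (genome-wide 88.9%). Of the shared KO summits 63.2% were at gene ends, and of the unshared KO summits 21.8%.

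In WT the gap to the genome-wide share was smaller at gene ends than in the deserts, and in KO it was similar in both. At gene ends, 129 of 161 gene-end WT summits (80.1%) had a KO partner (genome-wide 82.0%), and 132 of 209 gene-end KO summits (63.2%) had a WT partner (genome-wide 75.1%). In the deserts, more than 100 kb from a protein-coding gene, 24 of 148 WT summits (16.2%, genome-wide 35.4%) and 23 of 173 KO summits (13.3%, genome-wide 25.9%) were shared.

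The 3 strongest WDR5 sites of the chromosome had WT and KO summits 3 to 21 bp apart. The top summit lay 290 bp outside UBAC2, a gene of the endoplasmic reticulum's ubiquitin pathway, and inside its antisense transcript UBAC2-AS1, at chr13:99200564 in WT (−log10 q 587, rank 72) and chr13:99200567 in KO (638, rank 59). The next lay at chr13:44191817 in WT (264, rank 90) and chr13:44191796 in KO (328, rank 94). That site was no promoter of a protein-coding gene, being 181830 bp from SERP2 and 4312 bp from the microRNA gene MIR8079. The third lay at chr13:27620941 in WT (81.0, rank 143) and chr13:27620938 in KO (142, rank 121), inside LNX2, a ubiquitin ligase gene, 166 bp from its end in WT and 198 bp from an end of POLR1D, a subunit that RNA polymerases I and III share.

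Other leading shared genes had WT and KO summits 1 to 157 bp apart. Among them were RCBTB1 (−log10 q 32.4 in WT and 68.1 in KO), RBM26 (45.6 and 39.6), POU4F1, a neuronal transcription factor (40.0 and 29.7), MZT1, a component of the gamma-tubulin ring complex (27.3 and 35.3), KPNA3, an importin (24.5 and 40.8), and NAA16, an N-terminal acetyltransferase subunit (24.5 and 29.5). Scores of separate lists are on separate scales, so their order within a list can be read and their difference between lists cannot.

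WDR5 marked the 5′ ends of genes. For the 299 genes whose strand the RefSeq promoter table gives, 141 ends with a WT summit were 5′ ends and 4 were 3′ ends, and in KO 170 and 4. Within 2 kb of a start site, the 183 WT summits had their median 186 bp downstream of the start and the 246 KO summits 195 bp downstream. The plot of summit positions around start sites shows this peak in both genotypes, together with a smaller group upstream. EMBOW-F had 3 of 6779 summits within 2 kb of a start site.

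**Figure D1:**
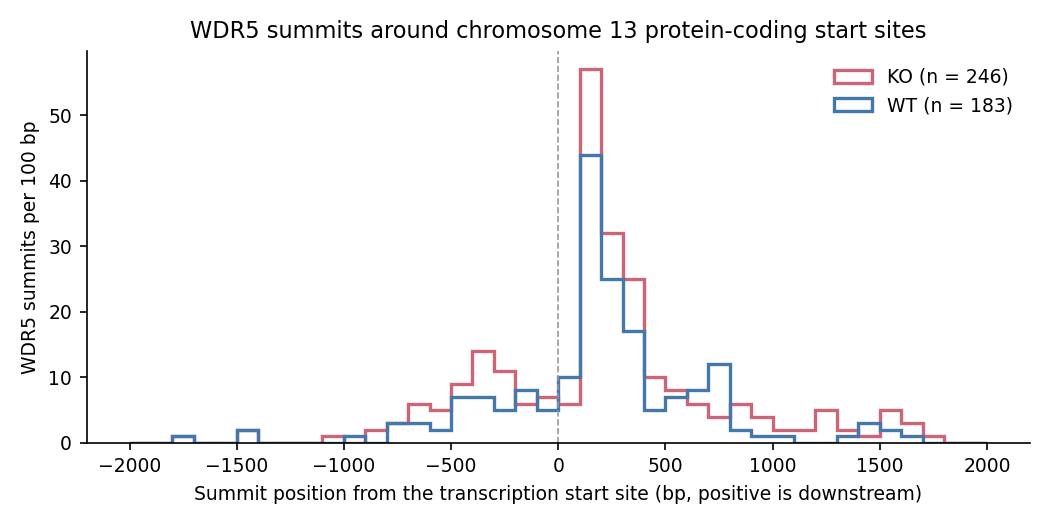
Number of WDR5 summits per 100 bp (vertical axis) by distance from the nearest protein-coding start site of chromosome 13 (horizontal axis, bp, positive is downstream), for WT (blue, n = 183) and KO (red, n = 246). Both genotypes are highest just downstream of the start, with medians of 186 and 195 bp.

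By gene, 157 of the 336 placed protein-coding genes (46.7%, genome-wide 50.0%) had a WT summit at an end and 192 (57.1%, genome-wide 53.4%) a KO summit. Both genotypes marked 146 genes (43.5%, genome-wide 46.4%) and neither marked 133 (39.6%, genome-wide 43.0%). KO alone marked 46 genes (13.7%, exact interval 10.2 to 17.8%, genome-wide 6.99%), and WT alone marked 11 (3.27%, 1.65 to 5.78%, genome-wide 3.51%). Of the 57 genes marked in 1 genotype, 80.7% were marked in KO, where the genome-wide share is 66.5%. The chromosome was picked for an excess of KO summits, so these shares are no independent finding. The ends are the outer ends of the gene span, and the start in the RefSeq promoter table can lie inside it. With that start counted as an end too, KO alone marked 45 genes and WT alone 14.

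The 46 KO-marked genes rested on 41 summits with −log10 q from 1.63 to 16.7 and a median of 6.23. For 35 of the 46 no WT summit lay within 5 kb of either end, and for 34 none lay within 5 kb of an end or the annotated start. For 3 of the 46, HMGB1, ESD and DCUN1D2, a WT summit lay within 1 kb of the annotated start. The highest score was that of 1 summit at chr13:108218675 (−log10 q 16.7, rank 2987), 326 bp from an end of LIG4 and 283 bp from an end of ABHD13. LIG4 is the ligase that seals breaks in non-homologous end joining, and ABHD13 is a hydrolase-domain protein. The nearest WT summit to an end of LIG4 was 1639669 bp away.

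Further KO-marked genes with a distant WT summit were CHAMP1, needed for chromosome alignment at mitosis (−log10 q 11.7, nearest WT summit 79442 bp from an end), CLYBL, a mitochondrial enzyme (10.8, 59072 bp), and USPL1, a SUMO protease (9.86, 13394 bp). HMGB1, a chromatin protein whose end is at the USPL1 summit, had WT and KO summits 203 and 212 bp from its annotated start, so WDR5 stood there in both. MICU2, a regulator of the mitochondrial calcium uniporter (9.75, 33647 bp), and TFDP1, the dimer partner of E2F factors (6.95, 94383 bp), followed. In other KO-marked genes a WT summit lay outside the 1 kb window but within 5 kb. These include PDX1, the pancreatic homeodomain factor (10.8, WT summit 1682 bp from an end), and ING1, a reader of H3K4me3 (6.95, 3506 bp). At DCUN1D2 (13.8) the WT summit was 1258 bp from an end but 406 bp from the annotated start.

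The 11 WT-marked genes had −log10 q from 2.57 to 21.8, and for 6 of them no KO summit lay within 5 kb of an end. MIPEP, a mitochondrial processing peptidase, was the strongest of the 6 (11.7, nearest KO summit 150502 bp from an end), and UFM1, a ubiquitin-like modifier (4.21, 323670 bp), and MAB21L1, an eye-development gene (2.57, 531181 bp), were the most isolated. TBC1D4, a regulator of glucose transporter traffic, had the highest score (21.8), but a KO summit lay 1004 bp from its end, just outside the window. CUL4A, a cullin scaffold (8.67, 1022 bp), was of the same kind. FNDC3A (13.9) had its KO summit 1073 bp from an end but 452 bp from the annotated start, 564 bp from the WT summit.

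In several genes both genotypes had a strong summit that was displaced by more than 500 bp. At SLAIN1, a microtubule plus-end protein, the WT summit lay at chr13:77698575 (−log10 q 37.7, rank 362) and the KO summit at chr13:77697844 (14.8, rank 3799), 731 bp apart, with an EMBOW-F summit (3.25) between them at chr13:77698162. At PCID2 the KO summit (19.9, rank 2084) and the WT summit (8.67) were 681 bp apart. KCTD12 (15.5 in KO and 14.3 in WT, 588 bp apart) and INTS6, an Integrator subunit (13.7 and 9.66, 510 bp apart), had the same form.

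Among the gene lists used here, cell cycle genes had the largest marked share in KO. The lists were drawn up with earlier results of these data known, so their order is a description only. Of 16 cell cycle and centrosome genes, 12 were marked in WT and 15 in KO, and the leading ones were BORA and MZT1, which share a summit (−log10 q 27.3 in WT and 35.3 in KO), KATNAL1, a microtubule-severing enzyme (14.96 and 29.8), and LATS2, a Hippo pathway kinase (14.96 and 17.6). SUGT1, TFDP1 and CHAMP1 were the 3 marked in KO alone, and CPAP, a centriole assembly protein, had no gene-end summit but a KO summit 288 bp from its annotated start. For scale, here and in the gene lists that follow, 50.0% of all protein-coding genes were marked in WT and 53.4% in KO. On chromosome 13 these shares were 46.7% and 57.1%.

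Of 7 DNA repair and replication genes 5 were marked in each genotype (71.4%, all protein-coding genes 50.0% in WT and 53.4% in KO). BRCA2, a homologous recombination protein, had 14.96 in WT and 32.9 in KO, RNASEH2B 12.9 and 18.1, and RFC3, a clamp-loader subunit, 2.04 and 12.3. LIG4 was marked in KO alone, CUL4A in WT alone, and ERCC5, the nuclease of nucleotide excision repair, in neither. RB1, the retinoblastoma tumour suppressor, had a summit in both, with 7.71 in WT and 22.8 in KO.

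Of 18 translation, RNA processing and transport genes 13 were marked in WT (72.2%, all protein-coding genes 50.0%) and 15 in KO (83.3%, all 53.4%). POLR1D led, followed by MTRF1, a mitochondrial release factor (24.5 and 29.5), TPT1 (21.3 and 27.9) and GTF3A, the factor that starts 5S RNA transcription (21.3 and 25.8). EXOSC8, an exosome subunit, and MRPS31, a mitochondrial ribosomal protein, were marked in KO alone. Of 12 chromatin and transcription cofactor genes 6 were marked in WT (50.0%, the same as over all protein-coding genes) and 10 in KO (83.3%). The 4 marked in KO alone were MPHOSPH8, of the HUSH silencing complex (5.22), SAP18 (2.67), HMGB1 (9.86), which has WT and KO summits at its annotated start, and ING1 (6.95), and PROSER1, SUPT20H, SETDB2 and ZMYM2 led those marked in both.

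Each genotype marked 8 of 10 ubiquitin and proteasome genes, with USPL1 in KO alone and KBTBD7 in WT alone. That is 80.0%, where all protein-coding genes stood at 50.0% in WT and 53.4% in KO. Of 15 mitochondrial and metabolic genes WT marked 10 (66.7%) and KO marked 12 (80.0%), and MICU2, DNAJC15 and ESD were the 3 in KO alone. Of 15 signalling, matrix and cytoskeleton genes WT marked 8 (53.3%, near the share of all genes) and KO marked 11 (73.3%). Among these, LAMP1, a lysosomal membrane protein, had its summit at the same base in both genotypes, chr13:113296901, with 14.96 in WT and 50.2 in KO, and EFNB2, IRS2 and ARHGEF7 were marked in KO alone.

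WT marked 8 (57.1%, all protein-coding genes 50.0%) and KO marked 10 (71.4%, all 53.4%) of 14 developmental transcription factors. POU4F1 led, with SOX21 (16.9 in WT and 25.8 in KO), ZIC5 (8.67 and 27.9) and CDX2 (7.37 and 13.5), and GSX1, KLF5, KLF12 and SOX1 were marked in neither. Genes of restricted tissues were the least marked of the lists, with 4 of 22 in WT (18.2%) and 6 in KO (27.3%). The coagulation factor genes F7 and F10 were among the 16 without a gene-end summit. EDNRB, the endothelin B receptor and also one of the 16, had summits 975 bp (WT) and 663 bp (KO) from its annotated start. Neural adhesion and gene-desert genes came next, with 6 of 17 in WT (35.3%) and 7 in KO (41.2%). PCDH9, a protocadherin, was the strongest of these (23.5 and 23.8), and KLHL1, SLITRK1 and SLITRK6 were among the 9 without a gene-end summit.

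Promoters of genes marked in both genotypes or in KO alone had more CpG dinucleotides than those marked in neither. All 22198 protein-coding windows had a median of 21 and 62.3% G and C. The 135 windows of genes marked in both genotypes had a median of 29 CpG dinucleotides and 67.7% G and C, the 37 marked in KO alone 31 and 69.0%, the 8 marked in WT alone 19.5 and 58.5%, and the 119 marked in neither 10 and 54.7%. On both strands, CCGGAAG, the core of ETS factor sites, occurred in 15.6% of the windows marked in both, 16.2% in KO alone, 4 of the 8 in WT alone, 3.36% in neither and 12.8% of all protein-coding windows. CACGTG, the E-box that MYC binds, occurred in 10.4%, 5.41%, 1 of 8, 8.40% and 8.34%. A match says that the letters are present, and no more.

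Most tagged-EMBOW summits lay far from protein-coding genes. More than 100 kb from a protein-coding gene lay 6126 of the 6779 EMBOW-F summits (90.4%, genome-wide 71.1%), and when the lncRNA, pseudogene and other entries of the gene table were counted as genes too, this share was 13.6%. Only 4 EMBOW-F summits (0.0590%, genome-wide 0.378%) were within 1 kb of an end of a protein-coding gene, and the genes were SLITRK1 and SLAIN1. Inside protein-coding genes were 301 (4.44%, genome-wide 14.9%), of which 216 lay in GPC5, a heparan sulfate proteoglycan of the glypican family, and 67 in KLHL1, a kelch-like protein of neurons. Per 100 kb of gene these were 14.7 summits in GPC5 and 16.4 in KLHL1. PCDH9, also in an EMBOW-F-rich stretch, had 0.539. GPC6, another glypican next to GPC5 but beyond the end of that stretch, had 0.168.

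Along the 97 consecutive bins of 1 Mb, EMBOW-F summits formed blocks. With a limit of 10 EMBOW-F summits per Mb, chosen after the counts were seen, 30 dense megabases held 6725 of the 6779 EMBOW-F summits (99.2%). The blocks ran over chr13:61000001-73000000 with 2503 summits, chr13:80000001-93000000 with 4012, chr13:74000001-77000000 with 122 and chr13:55000001-57000000 with 88. The 17 megabases without a protein-coding gene held 4157 EMBOW-F summits (61.3%), and the 26 with 6 or more genes held 17. The densest bin was chr13:83000001-84000000, with 615 EMBOW-F summits, 19 WT summits, 6 KO summits and SLITRK1 as its 1 protein-coding gene.

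**Figure D2:**
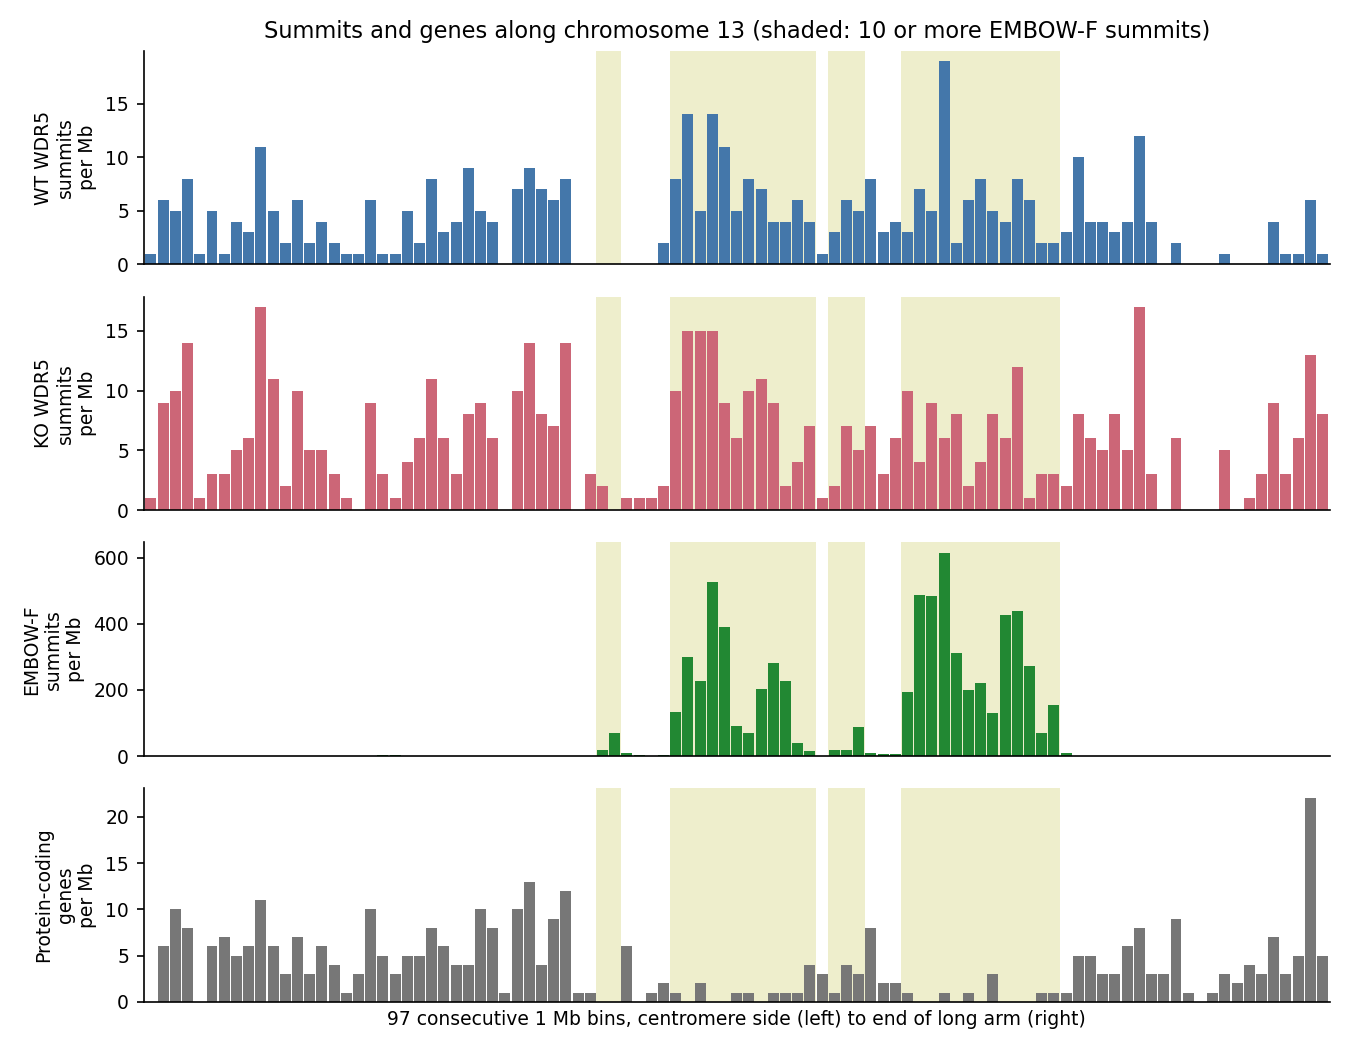
WT WDR5, KO WDR5 and EMBOW-F summits and protein-coding genes (4 panels, vertical axes, number per Mb) in 97 consecutive 1 Mb bins of chromosome 13, from the centromere side to the end of the long arm (horizontal axis). Shading marks the 30 bins with 10 or more EMBOW-F summits, which have few genes but carry WDR5 summits of both genotypes.

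Across the 97 megabases, which share their libraries, the Spearman correlation of protein-coding genes with WT counts was 0.21 and with KO counts 0.38. That of WT and KO counts was 0.77, that of EMBOW-F with protein-coding genes was -0.66, and those of WT and KO with EMBOW-F were 0.25 and 0.10. The most KO summits, 17 each, were in chr13:27000001-28000000, which has 11 genes including POLR1D, CDX2 and PDX1, and in chr13:99000001-100000000, which has UBAC2, ZIC5 and ZIC2. The next, with 15 KO summits, were 3 neighbouring bins of a desert with 226 to 525 EMBOW-F summits each. The longest stretch without a WDR5 summit of either genotype, chr13:102800473-106533361, held ERCC5, SLC10A2 and DAOA and no EMBOW-F summit either.

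The dense megabases and the other 67 held WDR5 summits of different kinds. In the dense megabases 13 of 181 WT summits (7.18%) and 15 of 205 KO summits (7.32%) were at gene ends, and the median −log10 q was 3.66 and 3.51. In the others 64.1% of 231 WT summits and 54.2% of 358 KO summits were at gene ends, with medians of 6.40 and 6.90. Shared summits were 19.9% of WT and 17.6% of KO in the dense megabases, and 74.9% and 48.3% in the others.

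The surplus of KO summits lay mainly outside the EMBOW-F blocks. The KO to WT ratio was 1.13 (exact interval 0.923 to 1.39) in the dense megabases and 1.55 (1.31 to 1.84) in the others. Over all summits of the other chromosomes it was 1.19 (1.16 to 1.21), so the dense megabases were near that level. It was 1.30 at gene ends (other chromosomes 1.08), 1.69 inside genes away from their ends (1.33), 1.91 within 100 kb outside genes (1.40) and 1.17 farther away (1.42), and the plot of the ratio by place gives the intervals. With the KO list shortened by score to the length of the WT list, the ratio was 1.07 for the chromosome. It was 0.768 (0.611 to 0.963) in the dense megabases and 1.30 (1.09 to 1.55) in the others. The shortening removed the lowest-scoring KO summits and no WT summit. It took KO from 205 to 139 summits in the dense megabases, where KO scores were lower, and from 358 to 300 in the others. A second setting limited both lists to a q of 1e-05 or less. There the ratio was 1 (0.650 to 1.54) in the dense megabases and 1.63 (1.31 to 2.02) in the others. The gap between the 2 kinds of megabase was present at each of these settings.

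**Figure D3:**
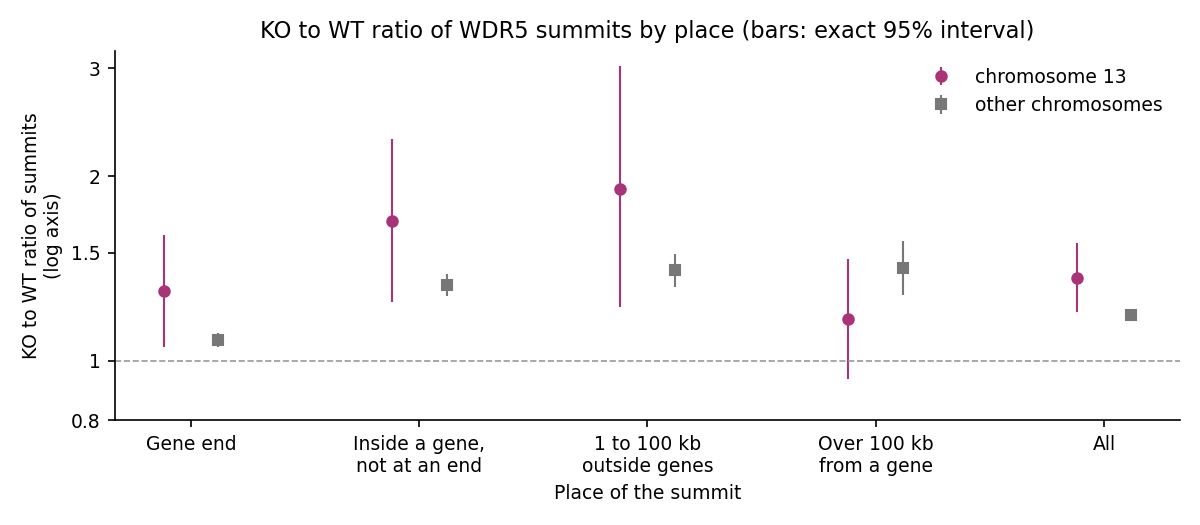
Number of KO summits divided by number of WT summits (vertical log axis) by place of the summit relative to protein-coding genes (horizontal axis), for chromosome 13 (circles) and the other chromosomes (squares), with exact 95% intervals that cover counting error only. On chromosome 13 the ratio is 1.69 inside genes and 1.91 within 100 kb outside them, and 1.17 farther away.

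A larger share of WDR5 summits coincided with EMBOW-F summits on chromosome 13 than on any other chromosome. The chromosome was picked partly for its many EMBOW-F summits, which bear on this share. Within 500 bp of an EMBOW-F summit lay 105 of 412 WT summits (25.5%, exact interval 21.3 to 30.0%, genome-wide 2.58%) and 119 of 563 KO summits (21.1%, 17.8 to 24.7%, genome-wide 2.33%). The difference from the other chromosomes was 23.5 percentage points in WT (95% interval 19.5 to 27.9) and 19.3 in KO (16.1 to 22.9). The highest share on another chromosome was 5.41% in WT and 3.67% in KO, as the plot by chromosome shows. Among summits more than 100 kb from a protein-coding gene, 95 of 148 in WT (64.2%, genome-wide 44.6%) and 114 of 173 in KO (65.9%, genome-wide 35.6%) coincided. Chromosome 13 thereby held 23.0% of all coincident WT summits of the genome and 24.3% of the KO ones. Its EMBOW-F density, 70.5 summits per Mb, was also the highest of the 23, where the others spanned 0.940 to 52.2 per Mb.

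**Figure D4:**
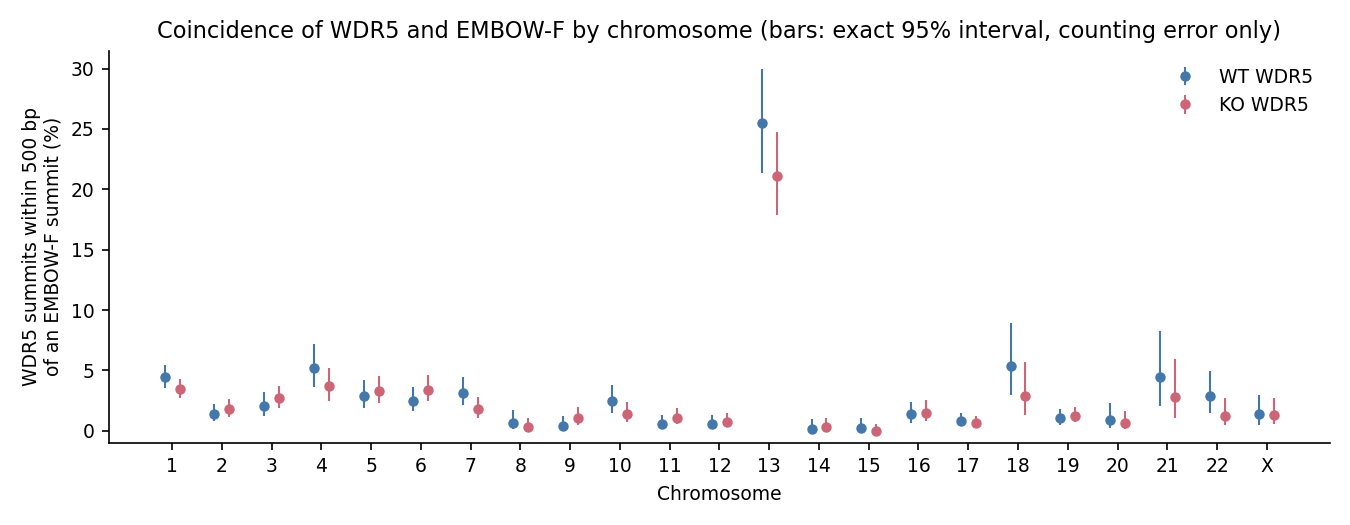
Percent of WDR5 summits within 500 bp of an EMBOW-F summit (vertical axis) for 23 chromosomes (horizontal axis), WT in blue and KO in red, with exact 95% intervals for counting error. Chromosome 13 stands at 25.5% and 21.1%, and no other chromosome is above 5.41%.

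Within the dense megabases the coincidence was larger than the ground that EMBOW-F covered. There, 103 of 181 WT summits (56.9%, exact interval 49.4 to 64.2%) and 117 of 205 KO summits (57.1%, 50.0 to 63.9%) were within 500 bp of an EMBOW-F summit, while 21.3% of the bases were. Within 100 bp were 38.7% of WT and 33.2% of KO summits, against 4.51% of the bases, which is 8.58 and 7.36 times the share of bases. At 500 bp these factors were 2.67 and 2.68. Such factors were not computed for other chromosomes. The plot of offsets has its peak at 0 in both genotypes. Distances to a nearest summit tend to pile up at 0 wherever summits lie, so the peak itself adds nothing to these shares. In the other megabases of the chromosome 2 WT and 2 KO summits coincided.

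**Figure D5:**
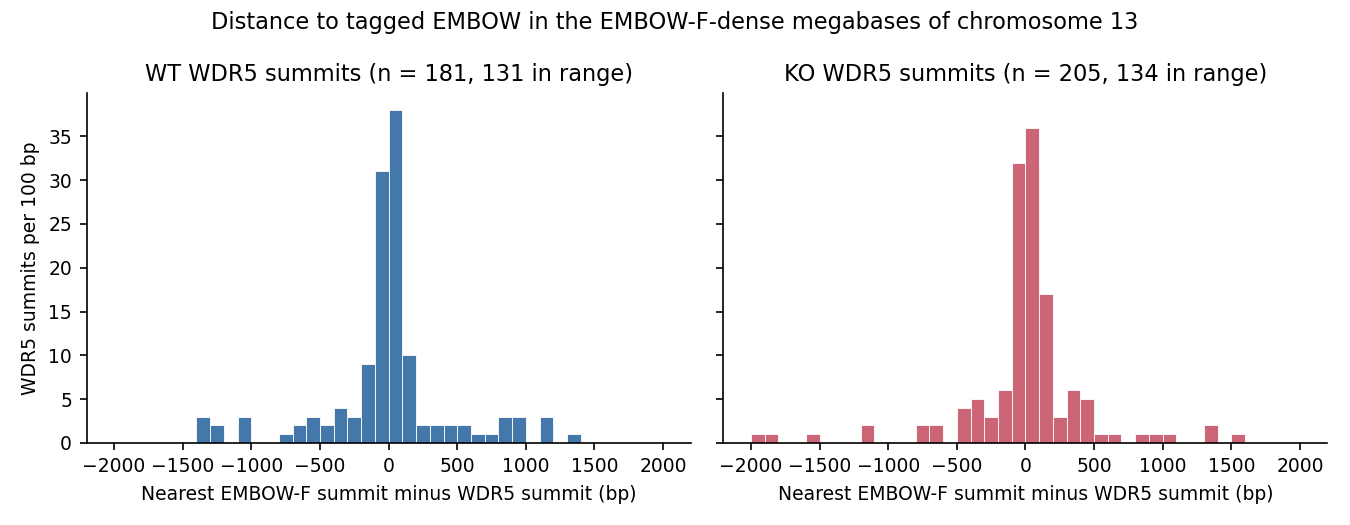
Distance in bp from each WDR5 summit to its nearest EMBOW-F summit (horizontal axis) and number of WDR5 summits per 100 bp (vertical axis) in the dense megabases of chromosome 13, for WT (left) and KO (right). Both genotypes peak at 0, as distances to a nearest summit tend to. Within 100 bp lie 38.7% of WT and 33.2% of KO summits, against 4.51% of the bases.

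This closeness was present in WT and in KO, and it was seen on other chromosomes too. The tagged protein was expressed in cells of its own, so WDR5 and EMBOW-F were not measured in the same cells. In the 971 dense megabases of the other chromosomes 15.6% of 2015 WT summits and 13.2% of 2505 KO summits coincided, against 8.43% of the bases. WDR5 was sparser there, with 2.08 WT summits per Mb against 6.03 in those of chromosome 13. In dense megabases chromosome 13 was not the highest: the share was 57.1% in WT and 61.5% in KO on chromosome 17, on 14 and 13 summits, and 9 of 12 WT and 3 of 5 KO summits coincided on chromosome 22. There 1.76% and 6.14% of the bases were near EMBOW-F. On chromosome 16, 50% of WT and of KO summits coincided (10 of 20 and 14 of 28), against 2.82% of the bases. On chromosome 19 the shares were 24.4% and 29.1% against 2.82%, and on chromosome 21 23.7% and 20% against 3.26%. Set against the bases near EMBOW-F, chromosome 13 was thus not the closest either. Not every chromosome had the closeness. On chromosome 11, 0 of 84 WT and 4.84% of 124 KO summits coincided, against 8.13% of the bases. On chromosome 12 the shares were 5.38% and 6.25% against 7.22%, and on chromosome 14 1.96% and 1.75% against 5.03%. Whether the input libraries also have signal at these places was not tested.

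Coincident WDR5 summits were about as weak as other WDR5 summits of the dense megabases, and higher-scoring EMBOW-F summits coincided more often. In the dense megabases the median −log10 q was 3.43 for coincident and 4.002 for other WT summits, and 3.44 and 3.60 in KO. With only WDR5 limited to a q of 1e-05 or less, 45.7% of WT and 47.8% of KO summits of the dense megabases coincided, and with only EMBOW-F limited 39.8% and 38.05%. With all 3 lists limited to a q of 1e-05 or less, the coincident share was 7.53% in WT and 5.84% in KO, and in the dense megabases 28.3% and 32.6% of 46 summits each. This limit kept 2384 of the 6779 EMBOW-F summits. The share of bases near those was not computed, so these values cannot be set against the 21.3% of bases near all EMBOW-F summits. When the EMBOW-F summits were split by score into 5 groups of 1355 or 1356, 7.52% of the highest group had a WDR5 summit of either genotype, and 3.47, 1.99, 1.03 and 1.25% of the following groups. Over all scores a WT summit lay within 500 bp of 106 EMBOW-F summits (1.56%, genome-wide 0.495%) and a KO summit within 500 bp of 120 (1.77%, genome-wide 0.539%), so 6572 (96.9%) had neither.

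WT and KO summits met at few EMBOW-F summits, as at few places of the dense megabases at large. Of the 105 coincident WT summits 18 (17.1%) also had a KO partner, and of the 119 coincident KO summits 18 (15.1%) had a WT partner. Over all summits of the dense megabases, coincident ones included, the shared part was 19.9% in WT and 17.6% in KO. Among those not coincident it was somewhat higher, 24.4% in WT (19 of 78) and 21.6% in KO (19 of 88). The 18 triple sites spanned a median of 91.5 bp, and 17 of them were more than 100 kb from a protein-coding gene. The one with the highest EMBOW-F score was inside the lncRNA gene FAM230C and held the first summit of the chromosome in each list, at chr13:18211860 in WT (−log10 q 13.4), chr13:18211859 in KO (18.9) and chr13:18211879 in EMBOW-F (33.1, rank 87). In the desert near KLHL1, the EMBOW-F summit at chr13:69073281 (27.6, rank 102) had a WT summit 26 bp away (2.58) and a KO summit 42 bp away (4.04).

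The 1 triple site within 100 kb of a protein-coding gene was in MIR17HG, the host gene of the miR-17-92 cluster, microRNAs that promote proliferation. Summits lay at chr13:91348567 in WT (−log10 q 45.2, rank 274) and chr13:91348574 in KO (40.3, rank 441), 880 and 887 bp inside the end of the gene, and the EMBOW-F summit, at chr13:91348257, was weak (2.38, rank 70100). The cluster begins 2051 bp beyond the WT summit. Its mature products are shown because they are the sequences transcribed from this site, with the seed, bases 2 to 8, in capitals, from RefSeq.
hsa-miR-17-5p: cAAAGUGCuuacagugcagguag
hsa-miR-20a-5p: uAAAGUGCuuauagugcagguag
hsa-miR-18a-5p: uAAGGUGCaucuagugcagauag
hsa-miR-19a-3p: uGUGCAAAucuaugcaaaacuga
hsa-miR-19b-3p: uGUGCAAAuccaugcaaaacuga
hsa-miR-92a-3p: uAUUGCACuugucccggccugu
The miR-17 and miR-20a seeds are the same, the miR-19a and miR-19b seeds are the same, and miR-18a and miR-92a have seeds of their own.

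The 5 strongest EMBOW-F summits had no protein-coding gene within 100 kb. The top one, chr13:61873012 (−log10 q 38.1, rank 79), lay 457163 bp from PCDH20, a protocadherin, with WT and KO summits 5710 and 5639 bp away. Those ranked next after FAM230C were at chr13:64301780 (28.6), chr13:69073281 (27.6) and chr13:64694931 (26.2). Of these 3 the first had a KO summit at 53 bp, the second is the triple site near KLHL1, and the third had no WDR5 summit within 5 kb. Neighbouring EMBOW-F summits were a median of 1879 bp apart, and never nearer than 326 bp.

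Genes inside the dense megabases carried WDR5 at their ends as well. Of the 25 protein-coding genes there, 14 were marked in WT, 15 in KO and 9 in neither, which is near the 50.0% in WT and 53.4% in KO of all protein-coding genes. BORA, MZT1 and DIS3, an exosome ribonuclease (13.8 in WT and 23.3 in KO), form a small gene cluster between deserts and were marked in both genotypes. At GPC5, whose body held 216 EMBOW-F summits, the gene end had a WT summit of 6.36 and a KO summit of 5.19. KLHL1, with 67, had a gene-end summit in neither.

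The authors' deposited list of EMBOW-dependent WDR5 targets held 339 transcripts with 300 distinct start sites on chromosome 13. A KO summit lay within 1 kb of 161 of these starts (53.7%, genome-wide 50.3%), a WT summit within 1 kb of 16 (5.33%, genome-wide 10.9%), a KO but no WT summit at 145 (48.3%, genome-wide 39.7%), and neither at 139 (46.3%, genome-wide 49.4%). No start had a WT summit without a KO summit (0 of 300, genome-wide 0.364%; both were present at 10.6% of starts genome-wide and at the same 16 here). An EMBOW-F summit lay within 1 kb of 6 (2.0%, genome-wide 0.632%). By gene, only 36 of the 336 placed protein-coding genes were matched to the list. The match went by the position of a listed start, so a gene without a match may still be listed. The counts that follow are of matched genes. Of the 46 genes marked in KO alone 24 were on it, among them ABHD13, CHAMP1, CLYBL, MICU2, EFNB2 and TFDP1. Of the 146 genes marked in both genotypes 4 were on it, of the 133 marked in neither 8, and of the 11 marked in WT alone 0. The list was chosen on these same samples, so its match with the KO summits is not independent evidence.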

How the data were processed

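The deposited files hold the peak summits of WT WDR5, KO WDR5 and EMBOW-F and the transcripts that the authors listed as targets. Per the submitters' processing notes the tools were deepTools 3.5.1, MACS2 2.2.7.1 and Bowtie2 2.4.5, on hg38, with roles and settings not stated. The score in the deposited lists was read as −log10 q from its values, since the lowest lies just above 1.30, the −log10 of a q of 0.05. The sources used here do not say which input served each call or whether reads were pooled. EMBOW-F summits, deposited for the series and not for a sample, were taken to be those of the FLAG precipitation, the only one in the labels.

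Rows on chromosome 13 were taken from each list. Genes, strands and sequences came from RefSeq tables of GRCh38.p14. Of 338 protein-coding genes 2 ended before the first promoter entry of the chromosome and were left out of its counts by gene. Of the other 336, called placed, 299 had a promoter entry. Partners were summits at most 500 bp apart, and gene ends were windows of 1 kb on either side of either end. Exact (Clopper-Pearson) 95% intervals, the exact conditional interval of a ratio of counts and Newcombe intervals of differences were computed with Python 3.11.15, numpy 2.4.6, pandas 2.3.3 and scipy 1.17.1. The distance code was tested on simulated data. With 1 library a list, no p-value was computed.

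The members and gene lists were chosen with earlier results of these data known. Named genes are the 10 with the highest-ranked gene-end summit among EMBOW-F summits and among WDR5 summits found in both genotypes, KO or WT, the leading summits and megabases of each list, members of gene lists marked in 1 genotype and the 4 highest-ranked of each list. DIS3 and RB1, and the examples among genes marked in 1 genotype, displaced summits, triple sites and EMBOW-F-bearing genes, were picked after their values were seen. Some genes that the rule names are not reported here.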

Additional observations from a re-analysis of the deposited data

How the results depend on the processing

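No paired analysis was possible because each list came from 1 library. No value has a replicate check, and depth could not be assessed. Alternatives for the dense megabases, for annotated starts, for the target list and for gene counts at the same list length were chosen after seeing the data. With both lists limited to a q of 1e-05 or less the KO to WT ratio was 1.47 (1.22 to 1.78), where the other chromosomes had 1.17. With the KO list shortened to the WT length, which makes the 2 genome-wide lists equally long, it was 1.07 (0.929 to 1.22). At that length it was 0.768 in the dense megabases and 1.30 in the others. KO summits with a WT partner were 31.4% at 250 bp, 45.3% at 1 kb, 54.7% at 5 kb and 48.2% at a q of 1e-05 or less, and WT summits with a KO partner 43.0, 59.7, 65.0 and 70.4%. Gene-end shares were 29.1% in WT and 28.6% in KO at 500 bp, 48.3 and 49.9% at 5 kb, and 46.1 and 44.8% with all genes of the table. EMBOW-F summits over 100 kb from a gene were 92.8% at a q of 1e-05 or less and 13.6% with all genes of the table. WDR5 summits with EMBOW-F nearby were 34.7% in WT and 27.4% in KO at 10 kb, 16.9% in KO at 250 bp, and 7.53 and 5.84% at a q of 1e-05 or less in all lists. In the dense megabases they were 71.1% in WT and 69.8% in KO with dense set at 100 EMBOW-F summits, 45.9% in KO at 250 bp, and 28.3% in WT and 32.6% in KO at that q. The share of bases near EMBOW-F was not computed for these settings. The counts of genes marked in 1 genotype stayed within 1.5 times, at 41 to 56 for KO and 9 to 15 for WT.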

Other observations

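Outside the ends of protein-coding genes, 29 of 251 WT summits (11.6%) and 43 of 354 KO summits (12.1%) of chromosome 13 lay within 1 kb of an end of a noncoding gene. The chromosome has 1186 placed noncoding genes. The matching share over other chromosomes or over bases was not computed, so a preference for these ends was not tested. DLEU1 and DLEU2, long noncoding genes of the region often deleted in chronic lymphocytic leukaemia, had WT summits with −log10 q of 11.9 and 6.64 and KO summits of 24.7 and 25.2. Counting summits at protein-coding gene ends too, the 4 transfer RNA genes of the chromosome each had a WT summit within 1 kb of an end, with −log10 q from 1.499 at TRE-TTC2-1 to 16.9 at TRF-GAA1-5. In KO 3 of the 4 did, with 15.6 at TRN-GTT2-4, 18.7 at TRE-TTC1-2 and 1.87 at TRF-GAA1-5. In WT the TRE-TTC1-2 summit is also a gene-end summit of ELF1, and the TRF-GAA1-5 summit one of DCT. The tRNA genes were looked at after their values were seen, and these values come with no comparison to other chromosomes.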
